A study of Mus musculus with 70 samples.

Results

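The genes described here are 10 genes that glucocorticoid hormones are known to regulate, among them Hif3a, measured in lung, cortex and cerebellum of mice that lack either isoform of the repressor Capicua. The members are Nr3c1, Hif3a, Zbtb16, Klf9, Tsc22d3, Fkbp5, Sgk1, Nfkbia, Pdk4 and Sult1a1. They were taken by symbol from a table of read counts with 50789 gene identifiers, and all 10 were found and passed the filter on low counts in each of the 3 tissues. The set was proposed with results of these data in view, and Hif3a was chosen by its lower count in Cic-L-KO cerebellum than in WT cerebellum. That comparison is therefore described below without being used as a test.

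Glucocorticoids (corticosterone in mice) are released by the adrenal gland in a daily rhythm and in response to stress. They bind the glucocorticoid receptor, which is encoded by Nr3c1 and held by a chaperone complex in the cytoplasm until hormone arrives, and the receptor then enters the nucleus and binds response elements in DNA. Fkbp5 encodes a co-chaperone that is induced by the receptor and lowers its hormone binding, which closes a feedback loop. Brain and lung both respond to the hormone, and in lung it is known for its part in maturation around birth. Hif3a encodes HIF-3alpha, a member of the hypoxia-inducible factor family that is known to be induced by glucocorticoids as well as by low oxygen. Capicua, the product of Cic, represses transcription and is made as a short and a long isoform.

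RNA from whole lung at postnatal day 6 and from whole cortex and cerebellum at 12 weeks of age was sequenced in 70 samples, which fell into 9 groups. The genotypes were Cic-S-KO, in which the short isoform is missing, Cic-L-KO, in which the long isoform is missing, and WT, for which littermates of both lines were pooled. Each group held 8 samples except Cic-S-KO cortex and Cic-S-KO cerebellum, which held 7 each. How the alleles were made, the sex of the mice and their housing were not given in the sources used here, and nothing in the labels says that the samples of a group came from separate animals, so p-values measure the spread between these samples. Total counts ran from 17798655 to 35523037 reads per sample. Lung samples carried the label batch 1 and brain samples batch 2, so levels in lung and brain cannot be told apart from batch and age. Tissue markers matched the labels. The summed level of 7 lung markers was at least 19200 CPM (counts scaled to the size of the library) in each lung group and at most 122 CPM in brain, and that of 7 cerebellar markers was at least 4170 CPM in cerebellum and at most 297 CPM elsewhere. Counts are summed over isoforms, so the Cic count does not show the loss of 1 isoform. Cic averaged 139 ± 11.3, 172 ± 10.5 and 135 ± 5.62 CPM (SD) in lung of the WT, Cic-S-KO and Cic-L-KO groups, 162 ± 8.62, 251 ± 7.64 and 298 ± 17.0 CPM in cortex, and 192 ± 14.5, 213 ± 14.6 and 212 ± 13.2 CPM in cerebellum, in the same order. Y-linked counts separated the samples of each group into males and females. Replicates 1 to 4 were male and 5 to 8 female, except in the Cic-S-KO brain groups, where replicates 1 to 3 were male and 4 to 7 female.

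Brain libraries numbered 5 and 6 stood apart for several members in WT and Cic-S-KO and have to be known before the results. These are WT replicates 5 and 6, Cic-S-KO replicates 4 and 5 and Cic-L-KO replicates 5 and 6, all female. In WT they were the highest samples of their group for 4 of the 10 members in cortex (Hif3a, Zbtb16, Tsc22d3 and Fkbp5) and for 6 of 10 in cerebellum (the same 4, Klf9 and Pdk4). In Cic-S-KO they were the highest for Hif3a, Zbtb16 and Tsc22d3 in both regions. In Cic-L-KO they were together the highest for 0 of 10 in either region. Cic-L-KO replicate 5 alone was the highest for Hif3a, Zbtb16, Tsc22d3, Sgk1 and Pdk4 in cortex and for Zbtb16, Klf9 and Fkbp5 in cerebellum. Cic-L-KO replicate 6 was the highest only for Nfkbia in cortex. Their depth, 20440799 to 30464699 reads in cerebellum and 24142099 to 29136017 in cortex, was close to that of the other libraries, 21304007 to 29611779 and 20730808 to 32548951. Results that rest on them are given with and without these numbers in all 3 genotypes, an alternative chosen after the values were seen.

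Among RefSeq promoter windows (build GRCm38.p6, 250 bases before to 50 after a transcript start), 8 of the 10 members had an entry, with 15 windows in all. Zbtb16 and Nr3c1 had none that was used. The windows were searched on both strands for the palindromic glucocorticoid response element (half-sites AGAACA and TGTTCT with any 3 bases between them), for its core ACANNNTGT, which lies inside the full element, and for the Capicua octamers TGAATGAA and TGAATGGA. The full element occurred in 3 of 32851 windows (0.00913%), and 1 of these was a window of Sgk1 at chr10:21993640-21993939 on the plus strand, where the match began 189 bases before the start site. The core occurred in 2 of the 15 member windows, both of Sgk1, against 6.85% of all windows. Neither octamer was found in a member window, while 1.3% of all windows held the first and 1.21% the second. The Sgk1 window is shown because it holds the full element, which is in capitals, and the Hif3a window (chr7:17062378-17062677, minus strand) because Hif3a gave the set its name; it held none of the 4 motifs and so has no capitals. A match is a description of these letters only.
Sgk1: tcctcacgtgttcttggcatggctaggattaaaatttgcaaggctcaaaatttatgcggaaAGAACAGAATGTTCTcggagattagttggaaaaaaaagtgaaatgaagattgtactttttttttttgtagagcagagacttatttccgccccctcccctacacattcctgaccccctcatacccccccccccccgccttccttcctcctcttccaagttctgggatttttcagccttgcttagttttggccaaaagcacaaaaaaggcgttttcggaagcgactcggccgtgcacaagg
Hif3a: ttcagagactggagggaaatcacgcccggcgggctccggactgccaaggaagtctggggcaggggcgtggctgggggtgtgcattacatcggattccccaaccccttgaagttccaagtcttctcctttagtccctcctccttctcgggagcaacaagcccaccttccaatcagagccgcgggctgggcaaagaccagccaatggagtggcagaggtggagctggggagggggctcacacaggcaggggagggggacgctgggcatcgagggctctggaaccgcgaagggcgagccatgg

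To compare levels between genes, CPM was divided by the summed exon length in kilobases. In WT cortex the order from high to low, in CPM per kilobase, was Klf9 (52.2 ± 5.97, SD, n = 8), Nr3c1 (21.1 ± 1.25), Tsc22d3 (19.0 ± 4.71), Sgk1 (17.2 ± 5.23), Nfkbia (12.7 ± 2.43), Zbtb16 (12.3 ± 3.97), Pdk4 (4.58 ± 0.533), Sult1a1 (4.28 ± 1.11), Fkbp5 (4.13 ± 1.16) and Hif3a (0.882 ± 0.422). Klf9 and Hif3a thus stood apart at the 2 ends, while the neighbours from Nr3c1 to Zbtb16 and from Pdk4 to Fkbp5 differed by less than the larger of their SDs. WT lung had another order, led by Sgk1 (57.6 ± 17.9 CPM per kilobase), Nfkbia (44.6 ± 4.65) and Nr3c1 (36.6 ± 1.97), with Hif3a (1.06 ± 0.294) and Zbtb16 (1.06 ± 0.501) lowest. WT cerebellum resembled cortex in its highest member, Klf9 (51.1 ± 4.3 CPM per kilobase), and its lowest, Hif3a (1.29 ± 0.815). The low level of Hif3a corresponded to between 38 and 475 reads in a sample.

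**Figure D1:**
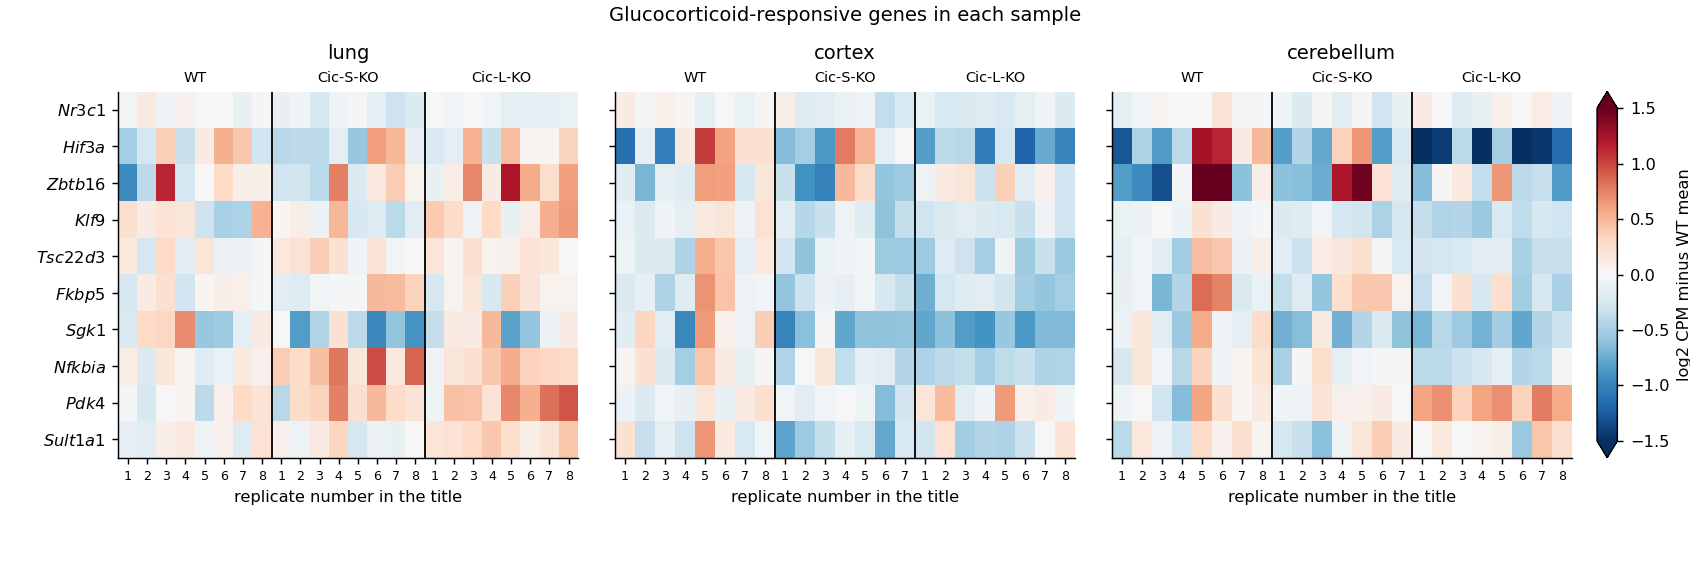
Each cell is the log2 CPM of a gene in a sample minus the WT mean of that tissue (red higher, blue lower, colours end at 1.5). Columns are replicates of WT, Cic-S-KO and Cic-L-KO in lung, cortex and cerebellum. WT replicates 5 and 6 of both brain regions are red for Hif3a, Zbtb16, Tsc22d3 and Fkbp5, and the Cic-L-KO cortex columns are mostly blue outside Zbtb16 and Pdk4.

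Hif3a, the gene that gave rise to the set, is described first. In cerebellum its level in CPM had a lowest, median and highest sample of 2.93, 6.65 and 17.3 in WT, 4.03, 5.33 and 11.4 in Cic-S-KO, and 1.47, 2.63 and 5.46 in Cic-L-KO. Samples of the last group lay low, 5 of 8 below every WT sample, and the highest of them overlapped the lower WT samples. The fitted log2 fold change of Cic-L-KO against WT was -1.47 (SE 0.376), a fold of 0.361, and that of Cic-S-KO against Cic-L-KO was 1.02 (SE 0.391). These values chose the set and are given as a description. With library numbers 5 and 6 left out, the difference between Cic-L-KO and WT was -1.03 (SE 0.306).

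The WT samples behind that difference were divided by sex. The 4 WT females had 17.3, 16, 7.87 and 10.2 CPM of Hif3a in cerebellum, and the 4 WT males 2.93, 5.22, 3.99 and 5.43 CPM. Every WT female thus exceeded every Cic-L-KO sample, whereas WT males overlapped them. Cic-L-KO females (2.47 to 5.09 CPM) and males (1.47 to 5.46 CPM) overlapped each other. Fitted within each sex, the log2 fold change of Cic-L-KO against WT was -1.95 (SE 0.385) in females and -0.59 (SE 0.401) in males. The difference between the sexes was -1.36 (SE 0.553). These samples chose the gene, so the values are a description and no difference between the sexes is read from them.

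The same gene in cortex was lower in Cic-L-KO in samples that the choice of the set did not use. Cortex CPM of Hif3a had a lowest, median and highest sample of 2.39, 6.06 and 11.1 in WT, 2.87, 4.76 and 9.06 in Cic-S-KO, and 2.26, 3.03 and 4.4 in Cic-L-KO. All 8 Cic-L-KO samples lay below the WT median, but only 1 lay below the lowest WT sample, so the groups overlapped. Hif3a fell by 0.88 on the log2 scale (SE 0.292, adjusted p = 0.0188, edgeR quasi-likelihood test) in Cic-L-KO against WT. It did not pass in Cic-S-KO against WT (-0.17, SE 0.293, adjusted p = 0.779, edgeR) or in Cic-S-KO against Cic-L-KO (0.70, SE 0.301, adjusted p = 0.077, edgeR). Without library numbers 5 and 6 the Cic-L-KO difference was -0.56 (SE 0.234, adjusted p = 0.0696, edgeR), and without WT replicate 5 alone it was -0.68 (adjusted p = 0.0521, edgeR). In females alone it was -1.36 (SE 0.282, adjusted p = 0.000971, edgeR) and in males -0.23 (SE 0.291, adjusted p = 0.591, edgeR), but the difference between the sexes did not pass (-1.13, SE 0.405, adjusted p = 0.711, edgeR). Cortex and cerebellum values of a number moved together, as the pairs of regions show further on, so the cortex is not independent of the cerebellum that chose the gene.

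Hif3a in lung did not pass in any contrast. Its lowest, median and highest CPM were 4.82, 6.58 and 9.95 in WT, 4.6, 5.71 and 10.6 in Cic-S-KO, and 5.43, 7.03 and 9.88 in Cic-L-KO, and the 3 groups overlapped throughout. Its log2 fold change was -0.11 for Cic-S-KO (SE 0.185, with an adjusted p of 0.719 in edgeR) and 0.068 for Cic-L-KO (SE 0.185, with an adjusted p of 0.879 in edgeR). Over the 9 groups, mean Hif3a ran in CPM from 8.62 ± 5.47 in WT cerebellum, 7.46 ± 1.71 in Cic-L-KO lung, 7.11 ± 1.97 in WT lung, 6.61 ± 2.26 in Cic-S-KO lung, 6.34 ± 2.88 in Cic-S-KO cerebellum, 5.92 ± 2.83 in WT cortex and 5.24 ± 2.3 in Cic-S-KO cortex to 3.23 ± 0.793 in Cic-L-KO cortex and 3.12 ± 1.43 in Cic-L-KO cerebellum. Neighbours in this order differed by less than their SDs except at the step between Cic-S-KO cortex and Cic-L-KO cortex, where the difference of the means was below the larger SD and above the smaller.

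Hif3a and Cic are both on chromosome 7 and 8.21 Mb apart (Hif3a from 17031507 to 17062427 on the minus strand, Cic from 25267704 to 25294159 on the plus strand, GRCm38). Among the 306 genes tested in cerebellum within 10 Mb of the start of Cic, 21.2% were called in Cic-L-KO against WT, against 21.5% of all genes. In cortex 44.7% of 311 such genes were called, against 43.2% of all genes. Whether alleles linked to Cic took part in the Hif3a difference was not tested.

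**Figure D2:**
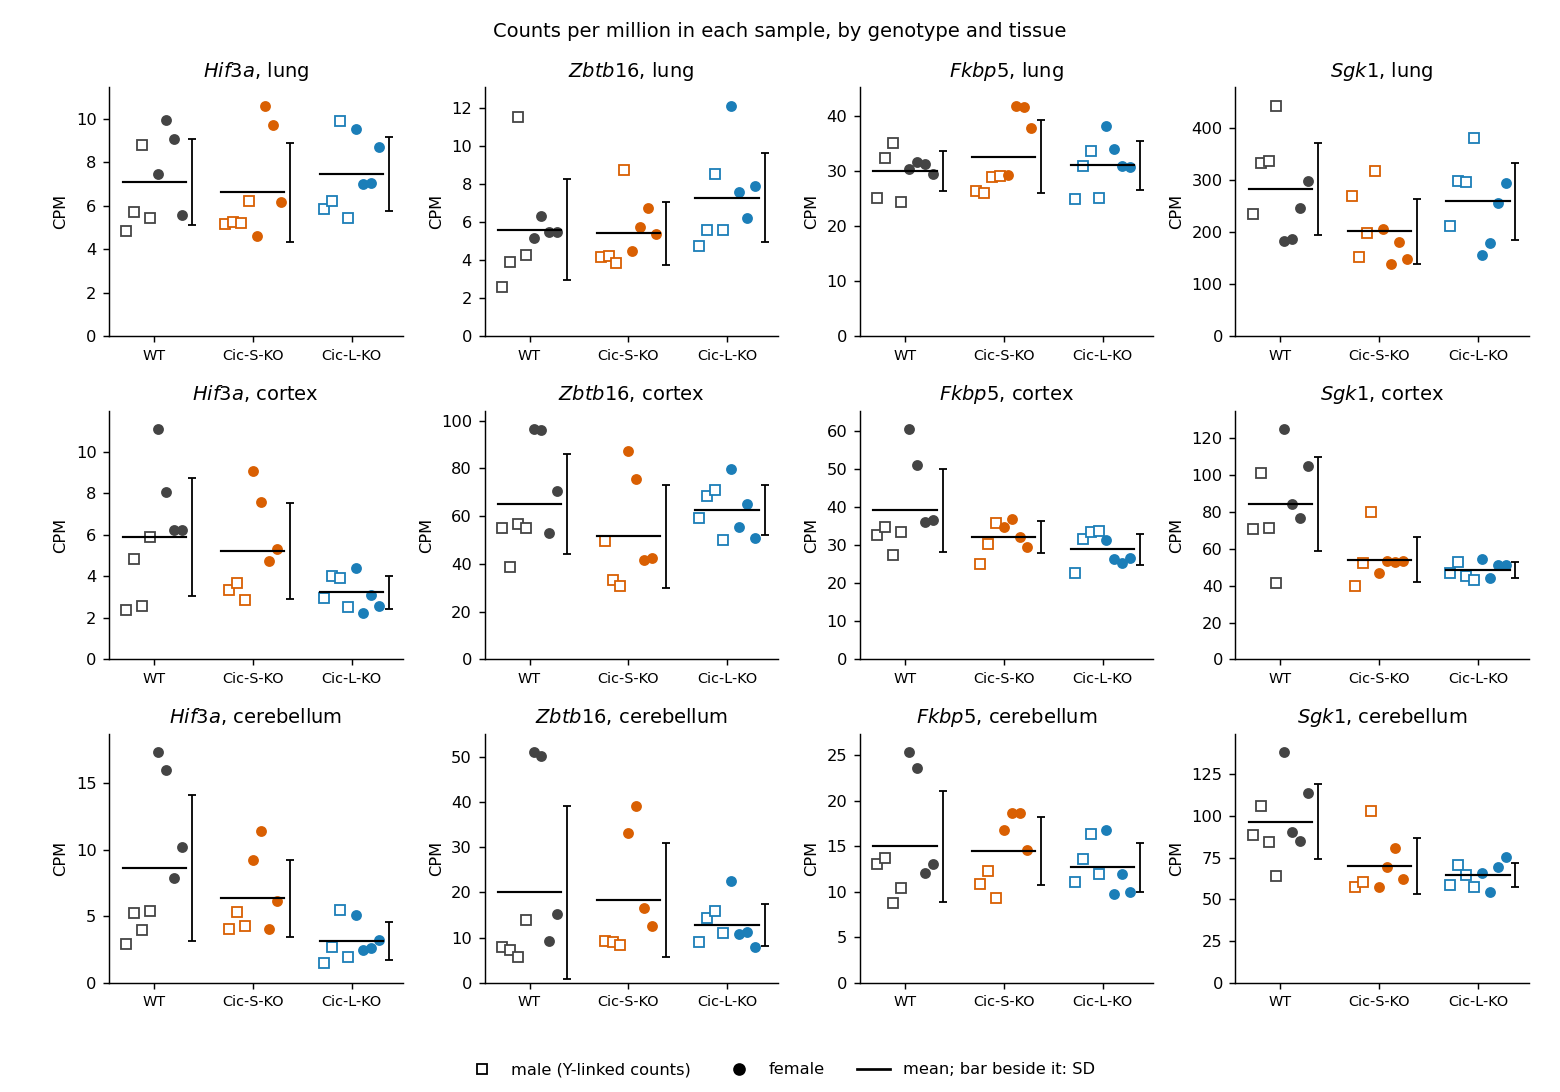
CPM of Hif3a, Zbtb16, Fkbp5 and Sgk1 in every sample by genotype, with 1 row per tissue (open squares males, filled circles females, line mean, bar SD). In brain, 2 WT females stand high for Hif3a, Zbtb16 and Fkbp5, and Cic-L-KO samples of Hif3a and Sgk1 lie at or below the lower part of the WT range.

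The other members were then compared with WT in cortex, where most of them differed in Cic-L-KO. Of the 10 members, 7 were lower and 0 higher in Cic-L-KO cortex, at an adjusted p under 0.05, where 21.9% of all 16974 genes tested were lower and 43.2% were called in either direction. The median log2 fold change of the 10 was -0.32, against 0.011 over all genes. The receptor gene, 3 of the 4 transcription regulators (Hif3a, Klf9 and Tsc22d3) and all 3 signalling regulators fell, and neither metabolic enzyme gene passed. Leaving out library numbers 5 and 6, 3 of 10 passed, Nr3c1, Sgk1 and Nfkbia, against 36.6% of all genes, so the count rests in part on those samples. Within sexes, 6 of 10 passed in females, against 27.4% of all genes, and 1 of 10 in males, Nr3c1, against 31.1%. The difference between the sexes passed for 0 of 10 (edgeR), with 3 at an unadjusted p under 0.05. The share of all genes is not given here for that difference, so neither count is read as a result.

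Nr3c1, the receptor gene, was measured at 147, 163 and 177 CPM (lowest, median and highest) in WT cortex and at 138, 142 and 155 CPM in Cic-L-KO cortex. The Cic-L-KO samples lay low, 6 of 8 below every WT sample, though the fall was small, 0.888 fold (log2 -0.17, SE 0.0466, adjusted p = 0.00355, edgeR). Cortex samples of Cic-S-KO stood at 125, 145 and 172 CPM, for a log2 fold change of -0.15 (SE 0.0483, adjusted p = 0.0611, edgeR).

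Klf9, Tsc22d3 and Fkbp5 also fell in Cic-L-KO cortex, and none of the 3 passed without library numbers 5 and 6. Klf9 encodes a Kruppel-like transcription factor, and its samples ran from 216 to 292 CPM in WT (median 241), from 165 to 236 in Cic-S-KO (median 198) and from 198 to 241 in Cic-L-KO (median 214). Its log2 fold change for Cic-L-KO was -0.23 (SE 0.0689, adjusted p = 0.00913, edgeR), or -0.15 without those numbers (adjusted p = 0.0944, edgeR). For Cic-S-KO the change was -0.31 (SE 0.0715, adjusted p = 0.014, edgeR) and kept its call without them (-0.32, adjusted p = 0.0199, edgeR), and 4 of 7 samples lay below every WT sample. Tsc22d3, which encodes the glucocorticoid-induced leucine zipper GILZ, had a range of 58.2 to 117 CPM in WT and 54.6 to 77.7 CPM in Cic-L-KO, with WT replicates 5 (117 CPM) and 6 (107 CPM) above all others. Its log2 fold change was -0.40 (SE 0.136, adjusted p = 0.0207, edgeR) and it was not called without WT replicate 5 (-0.31, adjusted p = 0.0538, edgeR) or without WT replicate 6 (-0.33, adjusted p = 0.0513, edgeR). Fkbp5 ranged from 27.4 to 60.4 CPM in WT and from 22.8 to 33.6 CPM in Cic-L-KO, and its log2 fold change of -0.44 (SE 0.136, adjusted p = 0.0126, edgeR) became -0.22 without library numbers 5 and 6 (adjusted p = 0.0962, edgeR).

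Sgk1 encodes a kinase that regulates ion channels and transporters and is an early target of the hormone. WT cortex samples were spread from 41.4 to 125 CPM with a median of 80.5. Cic-L-KO cortex samples lay between 43.3 and 54.4 CPM, all below 7 of the 8 WT samples but none below the lowest, WT replicate 4. The log2 fold change of Sgk1 against WT was -0.80 (SE 0.166, adjusted p = 0.000606, edgeR) for Cic-L-KO and -0.64 (SE 0.172, adjusted p = 0.0305, edgeR) for Cic-S-KO, whose samples had a lowest, median and highest value of 40.1, 52.9 and 79.9 CPM. The Cic-L-KO call held without library numbers 5 and 6 (-0.68, adjusted p = 0.0148, edgeR), while the Cic-S-KO call was lost (-0.48, adjusted p = 0.208, edgeR) and was also lost when any of 7 single libraries was left out, with adjusted p from 0.051 to 0.0713. These were Cic-S-KO replicates 2, 4, 6 and 7 and WT replicates 5, 6 and 8.

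Nfkbia encodes IkappaB-alpha, the inhibitor that holds NF-kappaB in the cytoplasm. Its cortex CPM had a lowest, median and highest sample of 14.1, 20.5 and 26.8 in WT and 14.1, 14.9 and 15.9 in Cic-L-KO, so that the Cic-L-KO samples lay in a narrow band at the bottom of the WT range. Nfkbia fell by 0.45 in log2 (SE 0.0992, adjusted p = 0.00067, edgeR) and still passed without library numbers 5 and 6 (-0.37, adjusted p = 0.0113, edgeR). In Cic-S-KO cortex it stood at 14.7, 17.8 and 22.6 CPM and did not pass (-0.20, adjusted p = 0.237, edgeR).

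Zbtb16, Pdk4 and Sult1a1 did not pass in Cic-L-KO cortex. Zbtb16 encodes the zinc finger repressor PLZF, and its median was 55.8 CPM in WT and 62.1 in Cic-L-KO samples (log2 -0.062, SE 0.218, adjusted p = 0.84, edgeR). Pdk4, whose kinase product restrains pyruvate oxidation, had medians of 15.3 CPM in WT and 17.1 in Cic-L-KO samples (0.17, SE 0.106, adjusted p = 0.2, edgeR). Sult1a1 encodes a phenol sulfotransferase and had medians of 5.92 and 5.1 CPM (-0.21, SE 0.143, adjusted p = 0.229, edgeR).

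Zbtb16 varied widely among libraries, and more so in cerebellum than in cortex in WT. In cortex its lowest, median and highest samples were 38.6, 55.8 and 96.4 CPM in WT, 30.9, 42.6 and 87.1 in Cic-S-KO, and 49.9, 62.1 and 79.7 in Cic-L-KO, and in cerebellum 5.64, 11.6 and 50.9, 8.46, 12.5 and 39.0, and 7.81, 11.1 and 22.4 CPM. WT replicates 5 and 6 had 96.4 and 95.9 CPM in cortex, against at most 70.7 in the other 6, and 50.9 and 50.1 CPM in cerebellum, against at most 15.2. Cic-S-KO replicates 4 and 5 stood out in the same way, at 87.1 and 75.4 CPM in cortex (others at most 49.5) and 33.0 and 39.0 CPM in cerebellum (others at most 16.5). Fkbp5 followed in WT only, with 60.4 and 51.1 CPM in cortex replicates 5 and 6 against 27.4 to 36.7 in the others.

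**Figure D3:**
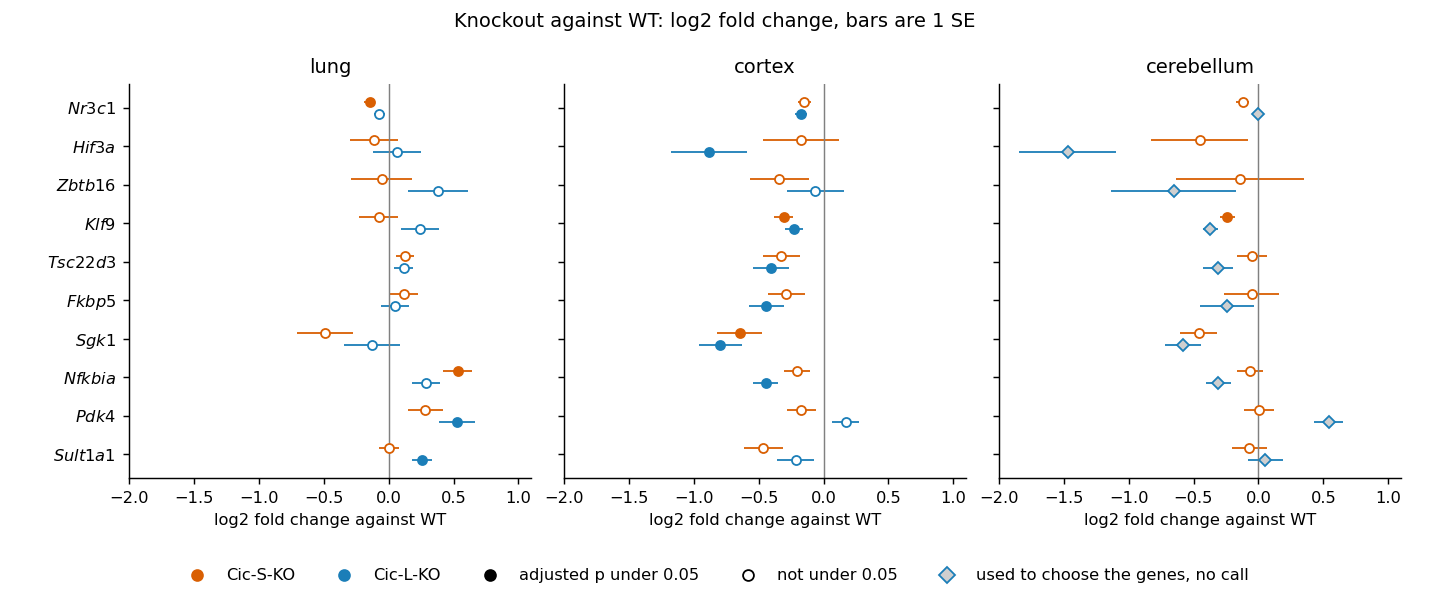
Log2 fold change of each member against WT with 1 SE, for Cic-S-KO and Cic-L-KO in lung, cortex and cerebellum. Filled circles had an adjusted p under 0.05, open circles did not, and grey diamonds are the Cic-L-KO cerebellum values used to choose the genes. Most cortex points lie to the left of 0, and Pdk4 in Cic-L-KO lies to the right in all 3 tissues.

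In Cic-S-KO cortex, 2 of the 10 members passed, Klf9 and Sgk1, both lower, against 6.53% of all genes. All 10 log2 fold changes were below 0, with a median of -0.30 against -0.00087 over all genes, and 8 of them did not pass. Of all genes 3.7% were lower. Without library numbers 5 and 6, 1 of 10 passed, Klf9, against 3.64% of all genes. Both knockouts were compared with the same WT samples, so their 2 sets of values are not independent. Tested against each other in cortex, the knockouts differed in 1 of 10 members against 33.9% of all genes. This was Pdk4, at 10.2, 15.3 and 16 CPM in Cic-S-KO and 14.2, 17.1 and 24.9 CPM in Cic-L-KO (lowest, median and highest), with a log2 difference of -0.34 (SE 0.11, adjusted p = 0.0172, edgeR). When library numbers 5 and 6 were removed, 3 of 10 passed against 33.3% of all genes, Pdk4 (-0.32), Sult1a1 (-0.43) and Zbtb16 (-0.61, adjusted p = 0.00672, edgeR), each lower in Cic-S-KO.

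Cerebellum was described in the same way. In Cic-S-KO cerebellum 1 of 10 members passed, Klf9, which was lower, against 8.23% of all genes called in either direction and 3.89% lower. Klf9 stood at 228, 239 and 288 CPM in WT and at 177, 206 and 239 CPM in Cic-S-KO, with 6 of 7 knockout samples below every WT sample, and fell by 0.24 in log2 (SE 0.0573, adjusted p = 0.00996, edgeR). Without library numbers 5 and 6 it did not pass (-0.17, adjusted p = 0.171, edgeR), and 0 of 10 members did, against 1.37% of all genes. Sgk1 was close to the threshold (64.0 to 138 CPM in WT, 57.2 to 103 in Cic-S-KO, log2 -0.46, SE 0.144, adjusted p = 0.0516, edgeR). It passed without Cic-S-KO replicate 3, its highest knockout sample (-0.58, adjusted p = 0.00882, edgeR).

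Cic-L-KO cerebellum against WT is the comparison that chose the set. In it 5 of 10 members had an adjusted p under 0.05, against 21.5% of all genes, which is given without being read as a result. Besides Hif3a, the fitted log2 fold changes were -0.37 for Klf9 (SE 0.0552), with all 8 samples (167 to 209 CPM) below every WT sample, -0.58 for Sgk1 (SE 0.139), -0.31 for Nfkbia (SE 0.0965) and 0.54 for Pdk4 (SE 0.109). After removal of library numbers 5 and 6, the count was 3 of 10 against 13.3% of all genes, with Klf9 at -0.33, Pdk4 at 0.71 and Hif3a at -1.03. Tsc22d3 was at -0.31 (SE 0.113), Zbtb16 at -0.65 (SE 0.481) and Fkbp5 at -0.24 (SE 0.208), the last 2 with wide errors, as WT Zbtb16 ran from 5.64 to 50.9 CPM.

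Of the members past the threshold in Cic-L-KO cerebellum, Pdk4 alone was higher there, and its samples lay between 15.0 and 20.2 CPM. In WT it had a lowest, median and highest sample of 7.51, 11.9 and 17.8 CPM, with replicate 5 the highest, and in Cic-S-KO of 11.2, 12.3 and 13.5 CPM. Cic-S-KO and Cic-L-KO samples did not overlap for Pdk4. Between the 2 knockouts, 1 of 10 members passed against 12.4% of all genes, and this was Pdk4 (log2 -0.53, SE 0.114, adjusted p = 0.00228, edgeR), and also without library numbers 5 and 6 (-0.56, adjusted p = 0.00232, edgeR, 8.32% of all genes called), in a test that shares its Cic-L-KO samples with the comparison that chose the set.

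Whether a knockout changed a member differently in the 2 brain regions was examined with an interaction term fitted to 46 samples and 18032 genes. Of the 10 members 0 passed for Cic-L-KO, against 23% of all genes, and 0 for Cic-S-KO, against 4.5% (edgeR). This fit took the samples as independent, although several members were correlated between same-numbered cortex and cerebellum samples, as shown further on. With genotype and number as a replicate block, 4 of 10 were called for Cic-L-KO, against 24% of all genes. These were Nr3c1 (-0.16), Sgk1 (-0.19), Pdk4 (-0.41) and Hif3a (0.57). Hif3a is a description there and not a test, because its cerebellum value chose the set. For Cic-S-KO 1 passed, Tsc22d3 (-0.28), against 4.72%. Whether a number marks 1 animal was not given, so 0 calls without the block do not show that the regions changed alike. At an unadjusted p under 0.05 without the block the Cic-L-KO interaction held for Nr3c1 (cortex minus cerebellum -0.17, SE 0.0703, adjusted p = 0.082, edgeR) and Pdk4 (-0.37, SE 0.157, adjusted p = 0.0867, edgeR), and for no member in Cic-S-KO. The share of all genes at that unadjusted level is not given here. DESeq2 gave 0 members in both interactions, against 24.9% and 6.22% of all genes. Without library numbers 5 and 6, Pdk4 passed for Cic-L-KO (-0.61, adjusted p = 0.00509, edgeR, 19.8% of all genes called) and 0 members for Cic-S-KO (0.84%). For Hif3a, whose cerebellum value chose the set, the difference was 0.60 (SE 0.481).

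In lung the members that passed against WT were Nfkbia, Nr3c1, Pdk4 and Sult1a1. In Cic-S-KO lung 2 of 10 passed, against 15.7% of all genes. Nfkbia stood at 61.2, 74.0 and 80.3 CPM in WT and at 79.4, 94.7 and 141 CPM in Cic-S-KO (lowest, median and highest), with 6 of 8 knockout samples above every WT sample. It rose 1.45-fold (log2 0.53, SE 0.111, adjusted p = 0.00225, edgeR). Nr3c1 was lower (260, 281 and 309 CPM in WT, 227, 257 and 276 CPM in Cic-S-KO, log2 -0.15, SE 0.0432, adjusted p = 0.0214, edgeR). Sgk1 reached -0.49 without passing (SE 0.215, adjusted p = 0.123, edgeR), with WT samples from 182 to 442 CPM.

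In Cic-L-KO lung 2 of 10 passed, both higher, against 4.89% of all genes in either direction and 2.62% higher, and both encode metabolic enzymes. Pdk4 had a lowest, median and highest sample of 6.47, 8.68 and 10.5 CPM in WT and 8.08, 12.0 and 16.4 CPM in Cic-L-KO, 6 of 8 above every WT sample, and rose 1.44-fold (log2 0.53, SE 0.138, adjusted p = 0.0244, edgeR). Sult1a1 stood at 16.3, 18.7 and 21.8 CPM in WT and 19.8, 22.1 and 25.0 CPM in Cic-L-KO and rose by 0.26 in log2 (SE 0.0761, adjusted p = 0.0464, edgeR). Nfkbia was above every WT sample in 7 of 8 Cic-L-KO samples but did not pass (0.29, SE 0.111, adjusted p = 0.136, edgeR). Both calls depended on single libraries. Pdk4 was lost without Cic-L-KO replicate 7 or 8 or WT replicate 2 or 5 (adjusted p from 0.0505 to 0.063), and Sult1a1 without any of 15 libraries (adjusted p from 0.0515 to 0.0955, edgeR). Between the knockouts 1 of 10 passed against 12.2% of all genes. It was Sult1a1, at a log2 difference of -0.26 (SE 0.0762, adjusted p = 0.0258, edgeR), and this call was lost without any of 5 libraries, Cic-L-KO replicates 4 and 8 and Cic-S-KO replicates 5, 6 and 7.

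Whether the other members varied with Hif3a was examined within groups, on log2 CPM minus the group mean, so that genotype differences played no part. Relations among the other 9 members were not tested, so a shared axis of the whole set was not either. For each tissue the correlation of Hif3a with the other 9 members was tested by two-sided permutation within groups, adjusted over 27 relations. The p printed is that of Pearson's r unless rho is named. In all 3 tissues Hif3a moved with Zbtb16 and Fkbp5, by r and by rho (adjusted permutation p of rho at most 0.0224). With Fkbp5, r was 0.799 in lung (rho 0.79, n = 24, adjusted p = 0.00027 from the smallest p the permutations can give), 0.681 in cortex (rho 0.613, n = 23, adjusted permutation p = 0.0103) and 0.732 in cerebellum (rho 0.613, n = 23, adjusted permutation p = 0.00286). With Zbtb16 it was 0.701 in lung (rho 0.785, adjusted permutation p = 0.00198), 0.738 in cortex (rho 0.71, adjusted permutation p = 0.00286) and 0.834 in cerebellum (rho 0.74, adjusted permutation p = 0.000405). Leaving out the 2 samples farthest from the median of Hif3a left r between 0.587 and 0.755 for these 6 relations.

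Tsc22d3 followed Hif3a in brain by r but not by rho. In cortex r was 0.57 (adjusted permutation p = 0.0454) and rho 0.558 (adjusted permutation p = 0.0526), and in cerebellum r was 0.637 (adjusted permutation p = 0.0164) and rho 0.538 (adjusted permutation p = 0.0531), against an r of 0.0361 in lung (adjusted permutation p = 0.888); the difference between tissues was not tested. Klf9 went against Hif3a in lung by r (-0.525, adjusted permutation p = 0.0445) but not by rho (-0.481, adjusted permutation p = 0.0704), and did not pass in cortex (r = 0.486, adjusted permutation p = 0.109). Sgk1, Nfkbia, Pdk4, Sult1a1 and Nr3c1 did not pass in any tissue, with r from -0.453 (Nr3c1, lung) to 0.439 (Pdk4, cerebellum).

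Relations in brain rested on library numbers 5 and 6. Without them, 0 of 9 members passed in cortex and 0 of 9 in cerebellum (n = 17), and r with Hif3a was 0.305 for Zbtb16 and 0.359 for Fkbp5 in cortex and 0.511 and 0.336 in cerebellum (adjusted permutation p of 0.543 or more). With deviations taken within group and sex, Zbtb16 and Fkbp5 passed in lung (r = 0.69 and 0.776) and in cerebellum (r = 0.733 and 0.608, though rho of Fkbp5, 0.585, had an adjusted permutation p of 0.0744), and 0 of 9 passed in cortex, where r was 0.534 and 0.516. All 4 Y-linked genes listed were negatively correlated with Hif3a in each tissue, with a median r of -0.49 in lung, -0.559 in cortex and -0.611 in cerebellum. Hif3a itself averaged higher in females, by 0.83 in log2 in cerebellum (SE 0.231, adjusted p = 0.223, edgeR), 0.64 in cortex (SE 0.169, adjusted p = 0.124, edgeR) and 0.37 in lung (SE 0.139, adjusted p = 0.339, edgeR). Of the 10 members 0 passed that comparison in any tissue, against 0.12%, 0.259% and 0.126% of all genes in the same order. An unadjusted p under 0.05 was reached by 6, 2 and 4 members, but the share of all genes at that level is not given here.

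Among genes averaging 1 or more in log2 CPM, the gene most like Hif3a within lung groups was Fkbp5, at rank 1 of 13186 (r = 0.799, n = 24), followed by Epha3 (0.769), Rab27a (0.768), Slco2b1 (0.768) and Olfr1372-ps1 (0.764). Within cerebellum groups Zbtb16 ranked 3 of 12755 (r = 0.834), after Prr5 (0.85) and Tns3 (0.837) and before Mtmr4 (0.831) and Slc6a17 (0.827), and Fkbp5 ranked 19. In cortex the 5 most alike were Atp10a (0.864), Prpf38b (0.859), Pxdn (0.847), Adam1a (0.844) and Paxbp1 (0.842), with Zbtb16 at rank 93 and Fkbp5 at 238 of 12829. The ranks are descriptions over samples that share libraries and depth.

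**Figure D4:**
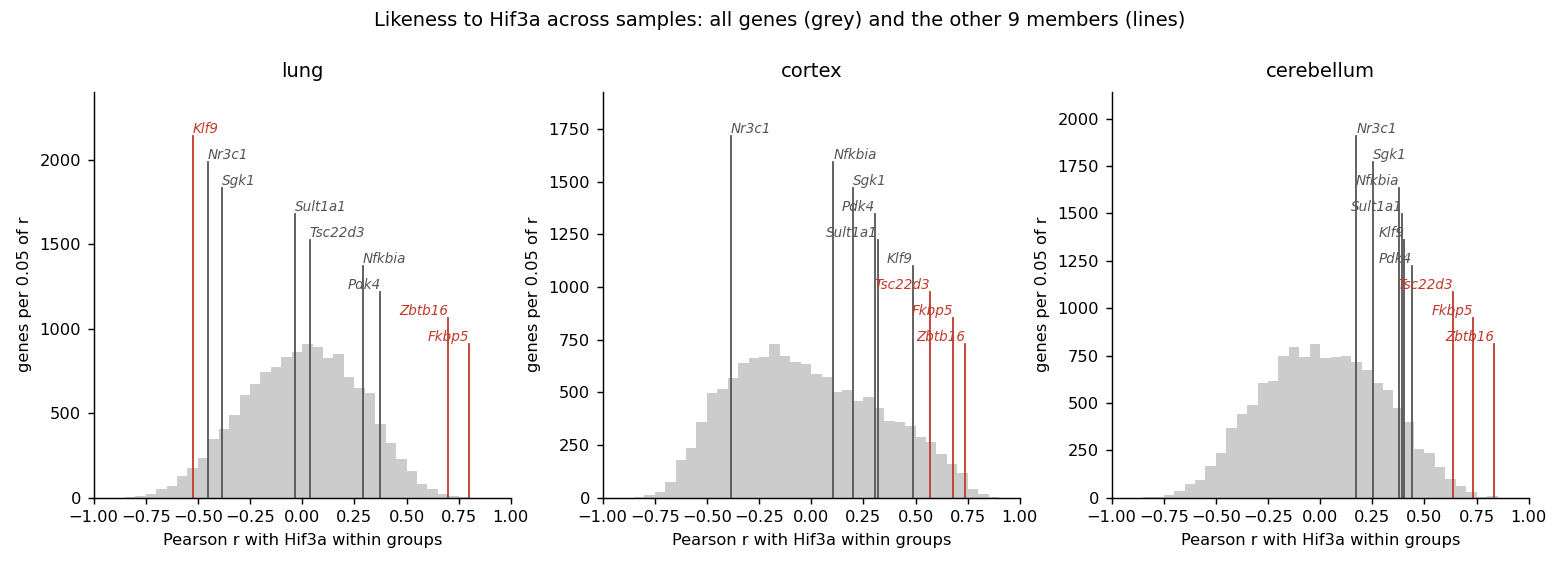
Grey bars count all genes by Pearson r with Hif3a within groups (x axis from -1 to 1), and lines mark the other 9 members, red where the adjusted permutation p of r was under 0.05. Fkbp5 and Zbtb16 lie at the right edge of the distribution in lung and cerebellum. In cortex they lie in its right tail (ranks 238 and 93 of 12829), and Klf9 lies at the left in lung.

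Brain samples of the same genotype and number were next compared between cortex and cerebellum (23 pairs, permutation within genotype, adjusted over 10 members). Of the 10 members, 6 were correlated between the regions by r and 5 of these also by rho. These were Sgk1 (r = 0.901, rho 0.86), Tsc22d3 (0.884, rho 0.834), Zbtb16 (0.865, rho 0.779) and Hif3a (0.842, rho 0.831), each with adjusted permutation p = 2.5e-05 from the smallest p the permutations can give, Fkbp5 (0.776, rho 0.663, adjusted permutation p = 0.0006) and Nfkbia (0.676, adjusted permutation p = 0.00347). Nfkbia did not pass by rho (0.448, adjusted permutation p = 0.0779). The median r over 12973 genes was 0.0962, and Sgk1 ranked 21 and Tsc22d3 24 among them. Without the 2 pairs farthest from the median, r was 0.859 for Sgk1, 0.818 for Tsc22d3, 0.841 for Zbtb16, 0.769 for Hif3a, 0.619 for Fkbp5 and 0.481 for Nfkbia.

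Without library numbers 5 and 6 (17 pairs), 4 members were correlated between regions by r, Sgk1 (0.893, adjusted permutation p = 0.0002), Tsc22d3 (0.718, adjusted permutation p = 0.0225), Hif3a (0.692, adjusted permutation p = 0.0225) and Nfkbia (0.668, adjusted permutation p = 0.0365), while Zbtb16 (0.554) and Fkbp5 (0.417) were not. By rho Nfkbia did not pass (0.52, adjusted permutation p = 0.0983) and Zbtb16 did (0.635, adjusted permutation p = 0.0395). Within group and sex the count by r was 6, the members being those of the full comparison, and Nfkbia again did not pass by rho (0.422, adjusted permutation p = 0.182). Nr3c1 (0.343), Klf9 (0.432), Pdk4 (0.33) and Sult1a1 (0.198) did not pass. Whether samples with the same number came from 1 animal was not given in the sources used here.

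**Figure D5:**
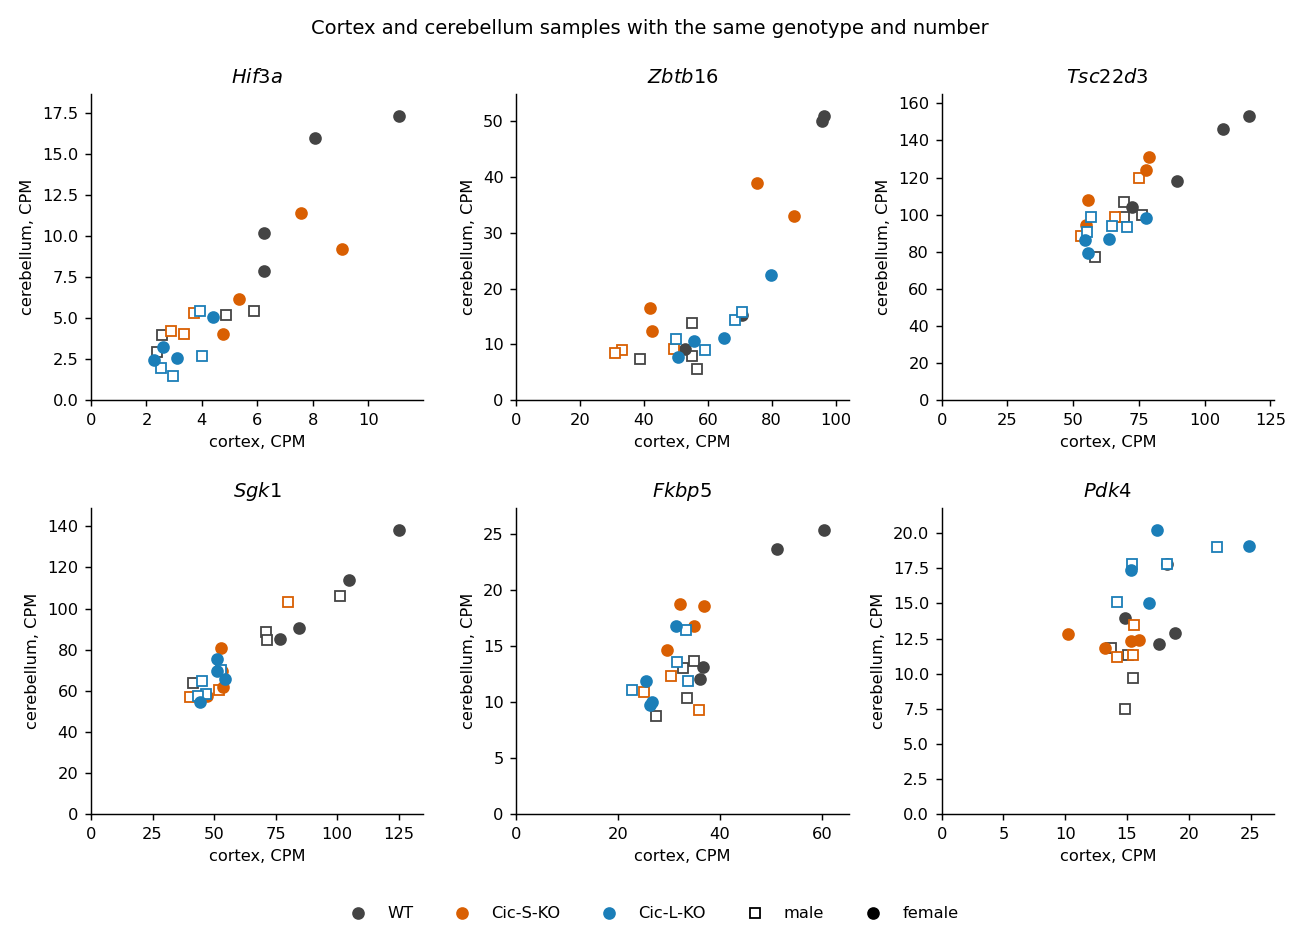
Each point is a cortex sample (x axis, CPM) against the cerebellum sample of the same genotype and number (y axis, CPM), coloured by genotype, with open squares for males. Points rise along a diagonal for Hif3a, Zbtb16, Tsc22d3 and Sgk1 (r = 0.842, 0.865, 0.884 and 0.901 within genotypes on the log2 scale), with WT replicates 5 and 6 at the upper right for the first 3 of these, and Pdk4 shows no such line (r = 0.33).

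As a plain summary of level, log2 CPM minus the WT mean was averaged over the 9 members other than the receptor gene. In cortex this average ran from -0.298 to 0.549 in WT (median -0.107), from -0.478 to -0.029 in Cic-S-KO (median -0.372) and from -0.467 to -0.138 in Cic-L-KO (median -0.356). In cerebellum it ran from -0.396 to 0.708 in WT (median -0.0979), from -0.411 to 0.249 in Cic-S-KO (median -0.147) and from -0.529 to 0.0159 in Cic-L-KO (median -0.275). In lung it ran from -0.172 to 0.315 in WT (median -0.00474), from -0.149 to 0.377 in Cic-S-KO (median 0.0108) and from -0.036 to 0.38 in Cic-L-KO (median 0.21). The Cic-L-KO median thus lay above that of WT in lung and below it in brain. The average includes Hif3a, whose low Cic-L-KO cerebellum values chose the set, and the average without Hif3a is not given here. Its Cic-L-KO cerebellum values are therefore a description, and the cortex is not independent of them. WT replicate 5 was the highest sample in both brain regions. The knockout ranges overlapped those of WT males in each brain region.

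Other genes that glucocorticoids are known to induce were taken from a list of 30, of which Sgk3 was not analysed here. In Cic-L-KO cortex 3 of 27 tested were higher and 9 lower, with a median log2 fold change of -0.21 against 0.011 over all genes. That count is near the background of 43.2% of all genes called there and is not a result about the list. Among those that fell were Klf15 (-0.36, SE 0.0675), a metabolic transcription factor, Cebpb (-0.80, SE 0.157), which encodes C/EBP-beta, and the kinase gene Map3k6 (-0.74, SE 0.174), whereas the repressor gene Bcl6 rose by 0.32 (SE 0.0659, adjusted p of the 4 at most 0.00109, edgeR). In Cic-S-KO cortex 0 were higher and 1, Gjb6, was lower (-0.40, adjusted p = 0.0216, edgeR), against 6.53% of all genes called. In Cic-S-KO cerebellum 0 were higher and 3 lower, namely Bcl6 (-0.61), Cdkn1a (-0.76) and the lipid droplet gene Plin4 (-0.95), against 8.23% of all genes called. In Cic-L-KO cerebellum 1 was higher and 3 lower of 27, against 21.5% of all genes. In Cic-S-KO lung 9 of 28 were higher and 0 lower (median 0.19), where 9.99% of all genes were higher and 15.7% were called in either direction. They were led by the metallothionein gene Mt1 (0.97, SE 0.163, adjusted p = 0.000401, edgeR), the lipid transporter gene Mfsd2a (2.21, SE 0.542, adjusted p = 0.00706, edgeR), Lcn2 (1.63, SE 0.391) and Gadd45g (0.68, SE 0.171). Mfsd2a was very low in lung, at 0.176 to 0.353 CPM in WT and 0.124 to 3.83 CPM in Cic-S-KO (median 0.67), and the groups overlapped. In Cic-L-KO lung 2 of the listed genes were higher and 0 lower, against 4.89% of all genes called.

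Genes of the receptor's chaperones, cofactors and hormone metabolism (18 listed, Hsd11b1 and Ncoa2 not analysed here) were examined next. In Cic-L-KO cortex 2 of 15 tested were higher, 8 lower and 5 did not pass (median log2 fold change -0.097), where 21.4% of all genes were higher and 21.9% lower. The corepressor gene Ncor1 fell by 0.26, the chaperone genes Hsp90ab1 by 0.19 and Hsp90aa1 by 0.22, and the mineralocorticoid receptor gene Nr3c2 by 0.26 (adjusted p of the 4 at most 0.00151, edgeR). Hsp90aa1 (-0.22) and Hspa8 (-0.24) were also among 4 lower genes in Cic-S-KO cortex, against 3.7% of all genes lower. Of the 9 other genes of the hypoxia-inducible factor pathway, 2 were higher and 4 lower in Cic-L-KO cortex, against 43.2% of all genes called, and 3 higher and 2 lower in Cic-L-KO cerebellum, against 21.5%. Epas1, which encodes HIF-2alpha, rose in both (0.24 and 0.55), and Hif1a fell in both (-0.21 and -0.20). Of 14 known hypoxia targets, 5 were higher and 3 lower in Cic-L-KO cerebellum, where 10.9% of all genes were higher and 10.6% lower, among them Car9 (-0.86) and Adm (0.78).

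Several markers of cell types and of the daily clock differed between the genotypes as well, and not every marker list is described here. In Cic-L-KO cortex 5 of 6 neuronal markers were lower, against 21.9% of all genes, and their summed level was 4400 to 5190 CPM against 6080 to 6700 in WT, with Snap25 changing most (-0.49). In Cic-S-KO cortex 2 of 6 were lower, against 3.7% of all genes (sum 5260 to 5850 CPM). Cerebellum had 4 of 6 lower in Cic-S-KO, against 3.89%, and 3 of 6 in Cic-L-KO, against 10.6%. The sums there were 3670 to 4380 and 3930 to 4430 CPM, against 4380 to 5020 in WT. Endothelial markers were higher, 4 of 6 in Cic-L-KO cortex (sum 167 to 214 CPM against 133 to 191 in WT) and 6 of 6 in Cic-L-KO cerebellum (163 to 201 against 105 to 137), with Kdr changing most in both (0.80 and 1.14), where 21.4% and 10.9% of all genes were higher. In Cic-S-KO lung 4 of 5 immune markers were higher (sum 153 to 357 CPM against 83.4 to 164 in WT), with S100a9 changing most (1.49), and 5 of 7 genes of the NF-kappaB pathway rose with Nfkbia, led by Nfkbie (0.81) and Tnfaip3 (0.45), where 9.99% of all genes were higher. In Cic-S-KO lung 3 of 6 endothelial markers were lower, against 15.7% of all genes called. Choroid plexus markers varied widely. Their summed median was 409 CPM (18.7 to 1300) in Cic-L-KO cortex and 28.8 CPM (21.3 to 589) in WT cortex, and 1 of 5 passed, higher. With Hif3a 5 of 5 had a positive r within cortex groups (median 0.108) and 0 of 5 within cerebellum groups (median -0.459). In bulk tissue, fewer cells of a type and less RNA per cell cannot be told apart, and the part of these shifts in the members' differences was not tested.

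Clock genes (14 listed, Npas2 and Per2 not analysed here) were compared in the same way. In Cic-S-KO against Cic-L-KO, 8 of 12 were higher and 1 lower in cortex, where 17.4% of all genes were higher and 33.9% called, and 8 were higher and 0 lower in cerebellum, where 6.06% were higher and 12.4% called. Against WT, 1 was higher and 6 lower in Cic-L-KO cortex (21.4% and 21.9% of all genes), among them Tef (-0.42), Nr1d2 (-0.37) and Ciart (-1.08), while Cry1 rose (0.49). In Cic-S-KO cortex 3 were higher, Per3 (0.34), Dbp (0.68) and Tef (0.17), and 0 lower, against 2.83% of all genes higher. Cic-S-KO cerebellum had 4 higher and 2 lower, against 8.23% of all genes called in either direction. In Cic-L-KO cerebellum 0 were higher and 6 lower, against 10.6% of all genes lower. In lung 0 of 12 passed in Cic-L-KO (edgeR), against 4.89% of all genes, with 1 higher gene in Cic-S-KO, Bhlhe41 (1.02), against 15.7% called. The hour of tissue collection was not given in the sources used here, and the part of the hour in the members' differences was not tested.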

How the data were processed

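The deposited table holds a whole-number count for each gene, not normalised by the authors, from poly(A)-selected RNA of 70 mouse tissue samples. Per the submitters' processing notes STAR 2.7 and build GRCm38.p6 were used, while the counting program, annotation and use of strand were not given in the sources used here, so overlapping and antisense genes cannot be told apart. Of 50789 identifiers, 50639 matched GENCODE M21 (GRCm38), without the version for some. All 238 pairs of replicates differed by more than sampling noise (chi-square per degree of freedom at least 4.17).

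Counts were tested with edgeR 4.0.16 (R 4.3.3): filterByExpr and TMM per tissue, 1 robust quasi-likelihood fit with 3 genotypes, Benjamini-Hochberg adjustment over all genes, called at 0.05. CPM values are TMM-scaled, and log2 CPM used a prior count of 2. Correlations used 100000 permutations within groups. Sex was read from Y-linked counts (male above 10 CPM). DESeq2 1.42.0 was an alternative. The edgeR and DESeq2 fits per tissue and for the interaction, and the permutation test, were tried on simulated data. At 17798655 to 35523037 reads per sample, counting error of Hif3a (38 reads or more) is not negligible.

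The members and gene lists were chosen with earlier results of these data known. Named are all 10 members, at most 4 genes per other list and contrast by smallest p among those called, the marker with the largest change, and the 5 genes most like Hif3a per tissue. Genes with no row in the table were left out.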

Additional observations from a re-analysis of the deposited data

Results flagged for a closer look

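Of the 90 sets of values (10 members in 9 groups), 3 held a sample whose gap to its nearest neighbour took up an unusually large part of the group's range by Dixon's criterion, where about 4.5 are reached without any cause (1 in 20). Sgk1 stood at 79.9 CPM in cortex Cic-S-KO replicate 3, against 40.1 to 53.5 CPM in the other 6 samples. Zbtb16 stood at 11.5 CPM in lung WT replicate 3, against 2.6 to 6.33 CPM in the other 7. Nr3c1 stood at 200.0 CPM in cerebellum WT replicate 6, against 159 to 178 CPM in the other 7. The high brain values of Hif3a, Zbtb16 and Fkbp5 in WT replicates 5 and 6 were not marked by this criterion, because 2 high samples hide each other's gap.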

How the results depend on the processing

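Single results of members kept their direction in each alternative in which they or the original were called. Leaving out each sample in turn gave 2 to 2 called members for Cic-S-KO lung against WT, 0 to 2 for Cic-L-KO lung and 0 to 1 between the knockouts there. In cortex the ranges were 1 to 3, 5 to 7 and 1 to 2 in this order, and in cerebellum 1 to 2, 4 to 6 and 1 to 2. A further limit of 0.5 on the size of the log2 fold change left 1, 1 and 0 in lung (Cic-S-KO against WT, Cic-L-KO against WT, and the knockouts against each other), 1, 2 and 0 in cortex and 0, 3 and 1 in cerebellum. Without a low-count filter the count was 1 for lung of Cic-L-KO, 1 for cortex of Cic-S-KO and 0 between the knockouts in cortex. With only the compared genotypes it was 1 in Cic-S-KO cortex, 3 between the knockouts in cortex and 3 in cerebellum. DESeq2 called 4 in Cic-S-KO cortex, 2 between the knockouts in cortex, 2 in Cic-S-KO cerebellum and 2 between the knockouts in cerebellum. A non-robust fit gave 2 between the knockouts in cortex and 2 in Cic-S-KO cerebellum, where a mean of at least 50 counts also gave 2. Removing deviations by GC content, chosen after seeing the data, gave 1 in Cic-S-KO lung and 2 between the knockouts in cortex. Without library numbers 5 and 6, also chosen after seeing the data, the counts were 1 in Cic-S-KO, 3 in Cic-L-KO and 3 between the knockouts in cortex, 0 in cerebellum of Cic-S-KO and 3 in that of Cic-L-KO, and 1 (Pdk4) in the Cic-L-KO interaction. The share of all genes called is not given here for most of these alternatives or for the blocks within a tissue described next. Their counts are therefore not read as a result about the members. The cause of these shifts was not tested.

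With the replicate number as a block, the counts were 1 in Cic-S-KO cortex, 2 between the knockouts in cortex and 2 in cerebellum. They were 1 (Tsc22d3) in the Cic-S-KO interaction and 4 (Nr3c1, Hif3a, Sgk1 and Pdk4) in the Cic-L-KO interaction, where Hif3a is a description only. By the number in the library name they were 2 between the knockouts in cortex and 2 in cerebellum. Cortex and cerebellum samples of a number deviated together, with a mean r of 0.239 over genes. Of the pairs, 21 of 23 were above 0.1 (lowest 0.0458), and 9 of 23 cortex samples matched their own number best within their genotype. How many unpaired samples would match best was not worked out here. Samples of a tissue with the same title number but different genotypes had a mean r of 0.278 in lung, 0.23 in cortex and 0.126 in cerebellum. By library number it was 0.278, 0.238 and 0.235. The mean r of 0.239 thus does not show that a number marks 1 animal, and the pairing is not established. Of the correlations with Hif3a, WT samples alone gave 0 in lung, 0 in cortex and 0 in cerebellum, knockout samples alone 1 in cortex and 1 in cerebellum, library numbers other than 5 and 6 gave 0 in cortex and 0 in cerebellum, and deviations within group and sex 0 in cortex. Each WT count of 0 rests on 8 samples, so it does not show that a relation was absent from WT. Among WT samples, r of Zbtb16 with Hif3a was 0.742 (lung), 0.6 (cortex) and 0.894 (cerebellum). Fkbp5 had 0.707, 0.849 and 0.804 in that order. Both brain regions include WT replicates 5 and 6, and r of the other members within WT is not given here. Counting error limits Hif3a, at 38 reads or more in a sample, and sex and hour of collection are not in the labels.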
